A study of Mus musculus with 8 samples.

Results

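The globin genes of the mouse encode the protein chains of haemoglobin and are used in red cells. The 7 genes described here were chosen by name, 3 embryonic (Hbb-y, Hbb-bh1 and Hba-x) and 4 adult-type (Hba-a1, Hba-a2, Hbb-bs and Hbb-bt), and were found by Ensembl identifier in the count tables. They are 7 of the 49315 genes listed there, and all 7 were among the 17163 genes with enough counts to be tested. RNA-seq of poly-A selected RNA was made from whole hearts at E9.5, with 4 libraries of wild-type embryos and 4 of homozygous Tbx20EH1Mut embryos and 3 hearts pooled in each library. The mutant embryos carry, in every cell, a germline Cas9-made change of a phenylalanine and a serine to leucine and isoleucine in the EH1 motif of the T-box factor Tbx20, the motif that binds TLE corepressors. The line was bred from founders by crossing to C57BL/6J. The comparison of the genotypes addresses which genes differ in hearts in which the binding of Tbx20 to TLE proteins is disrupted.

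At E9.5 the blood that passes through the heart carries primitive erythroid cells, which arise in the yolk sac and mature while they circulate. These cells use embryonic globins. As they mature, the beta-type messages shift from Hbb-bh1 toward Hbb-y, and the alpha-type messages shift from Hba-x toward Hba-a1 and Hba-a2. Hbb-bs and Hbb-bt, the adult beta-type genes of the C57BL/6 haplotype, belong mainly to the definitive red cells that are made later in the fetal liver and bone marrow.

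The sequences set how well reads can be assigned to each member. The adult alpha-type genes differ at 1 of 429 coding bases, and the adult beta-type genes at 1 of 444. The following 41-base stretches of the coding sequence (5′ to 3′, from the GENCODE M21 transcripts on GRCm38) are shown because they hold that base, in capitals, at coding base 381 of the alpha-type pair and 417 of the beta-type pair, counted from the A of the start codon.
Hba-a1: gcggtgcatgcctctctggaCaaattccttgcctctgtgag
Hba-a2: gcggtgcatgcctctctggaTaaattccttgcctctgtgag
Hbb-bs: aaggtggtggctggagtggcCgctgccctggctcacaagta
Hbb-bt: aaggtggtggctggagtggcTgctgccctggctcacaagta

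Of all 150-base windows of the reference transcript, 48.4% in Hba-a1 and 65.7% in Hba-a2 occur unchanged in the other gene. The shares were 58.7% in Hbb-bs and 50.7% in Hbb-bt. Hba-x, Hbb-y and Hbb-bh1 shared no such window with any other gene. A read within a shared window fits both copies, and how such reads were counted is not given in the sources used here, so the split between Hba-a1 and Hba-a2, and between Hbb-bs and Hbb-bt, is uncertain.

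The embryonic beta-type genes are far more distant. Hbb-y differs from Hbb-bh1 at 105 of 444 coding bases and from Hbb-bs at 114. The first 90 coding bases are shown for the adult gene and both embryonic genes because they hold 26 (Hbb-y) and 29 (Hbb-bh1) of the bases that tell them from Hbb-bs, given in capitals.
Hbb-bs: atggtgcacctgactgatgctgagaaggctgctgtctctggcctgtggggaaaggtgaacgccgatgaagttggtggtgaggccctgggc
Hbb-y: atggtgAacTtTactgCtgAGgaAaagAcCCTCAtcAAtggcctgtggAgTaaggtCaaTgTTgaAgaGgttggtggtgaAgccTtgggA
Hbb-bh1: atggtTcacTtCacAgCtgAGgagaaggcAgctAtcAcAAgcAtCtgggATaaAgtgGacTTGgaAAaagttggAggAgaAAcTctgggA

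Between 33359322 and 49523086 reads were counted on genes in the wild-type libraries and between 36250675 and 38357025 in the Tbx20EH1Mut libraries. The depths did not differ beyond their spread (exact two-sided permutation test over 70 arrangements, p = 0.143). Tbx20 itself lay between 353 and 379.6 CPM (counts relative to the scaled library size) in the wild-type and between 215 and 317 CPM in the mutant libraries, and counts per gene do not show the substitution. Tbx20EH1Mut 3 had the lowest TMM scaling factor, 0.883, against 0.984 to 1.06 in the other libraries, and was the highest library for Hbb-bs and the lowest for 5 other members. The markers fit the label of heart. The 10 cardiomyocyte genes summed to between 32390 and 38170 CPM in the wild-type and between 29670 and 42470 CPM in the mutant libraries, and 1 of the 10, Myh6, was called lower in the mutant, as were 15.3% of all genes tested.

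Globin messages were less abundant in the Tbx20EH1Mut hearts. Together the 7 genes took 0.204, 0.197, 0.400 and 0.509% of all counts in wild-type replicates 1 to 4. In Tbx20EH1Mut replicates 1 to 4 they took 0.115, 0.0865, 0.0325 and 0.0959%. The genotypes did not overlap, and wild-type 3 and 4 and Tbx20EH1Mut 3 formed the extremes. The mean was 0.327 ± 0.154% (SD, n = 4) in the wild-type and 0.0824 ± 0.0352% (SD, n = 4) in the mutant, and the summed level in CPM was 3.88-fold higher in the wild-type. The difference between the means was -0.245 percentage points, and -0.228 without Tbx20EH1Mut 3. In bulk samples, fewer red cells in the heart and less globin RNA per red cell cannot be told apart.

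Of the 7 members, 6 fell in the mutant and none rose, at a threshold of 0.05 on p-values of edgeR's quasi-likelihood F-test, adjusted by Benjamini and Hochberg's method over all 17163 genes. The remaining member was Hbb-bs. Over all genes tested, 29.3% were called in either direction, 15.3% lower and 14.0% higher. In 5 members every mutant library lay below every wild-type library, as it did in 15.7% of all genes tested. The median log2 fold change of the 7 was -1.74, against 0.00 over all genes tested. The count of members called was 5 without Tbx20EH1Mut 3, and 5 or 6 when each of the other libraries was left out.

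**Figure D1:**
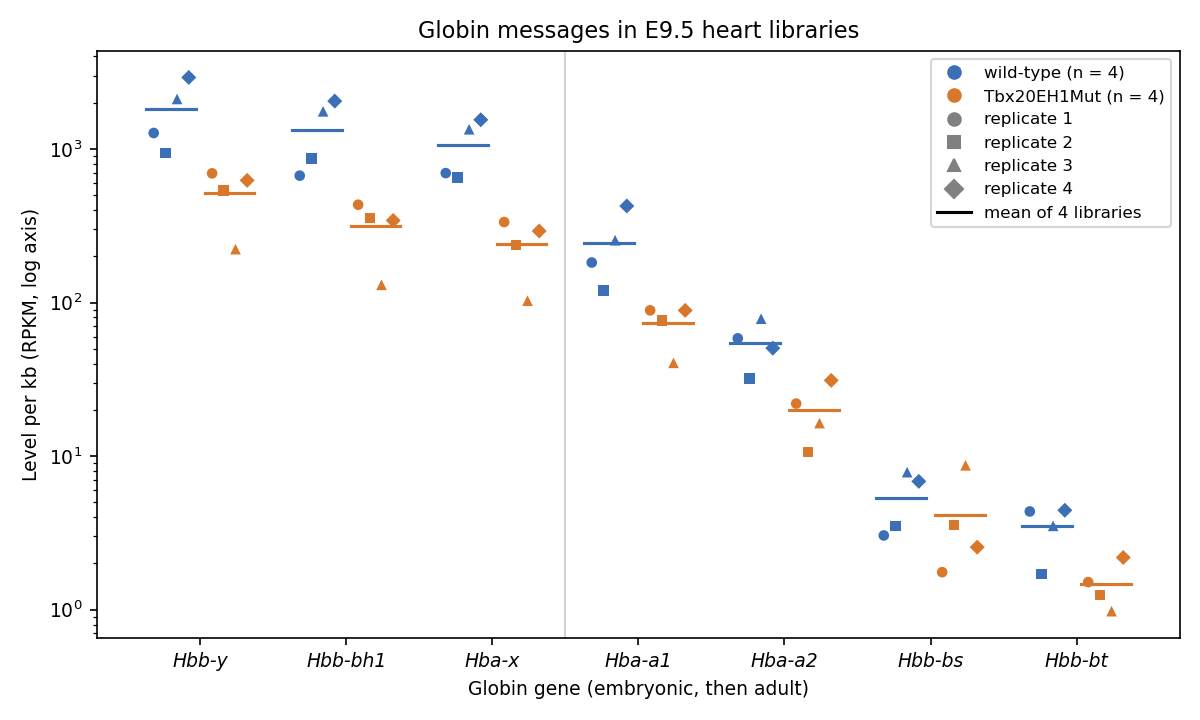
Level per kb of exon length (RPKM, log axis) of the 7 globin genes in each library. Blue marks are the 4 wild-type and orange marks the 4 Tbx20EH1Mut libraries, marker shapes give the replicate number, and lines give the mean of 4 libraries. The mutant libraries lie below all wild-type libraries for Hbb-y, Hbb-bh1, Hba-x, Hba-a1 and Hba-a2, and the genotypes overlap for Hbb-bs and Hbb-bt.

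Per kb of summed exon length (RPKM, which allows levels of different genes to be compared), the order of the mean levels was the same in both genotypes. The wild-type means were 1811 ± 890 for Hbb-y, 1335 ± 671 for Hbb-bh1, 1060 ± 453 for Hba-x, 245 ± 132 for Hba-a1, 54.8 ± 19.3 for Hba-a2, 5.31 ± 2.40 for Hbb-bs and 3.51 ± 1.27 for Hbb-bt (SD, n = 4). The mutant means were 519, 315, 242, 73.6, 20.03, 4.15 and 1.48 RPKM in the same order. Among all genes tested, Hbb-y ranked 14 and Hbb-bh1 24 by mean wild-type level, and they ranked 137 and 219 in the mutant.

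Neighbours at the top of this order did not differ beyond their spread across libraries. Hbb-y exceeded Hbb-bh1 by 1.36-fold in the wild-type means, and Hbb-bh1 exceeded Hba-x by 1.26-fold, with ranges that overlap broadly. Within libraries the order was steadier: Hbb-y was above Hbb-bh1 in 4 of 4 wild-type and 4 of 4 mutant libraries, and Hbb-bh1 was above Hba-x in 3 of 4 and 4 of 4. Hba-a1 stood 4.47-fold above Hba-a2, and Hba-a2 10.3-fold above Hbb-bs, in the wild-type means, and both orders held in each of the 8 libraries. Hbb-bs and Hbb-bt overlapped and exchanged places in 1 wild-type library.

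Hbb-y (ENSMUSG00000052187, chromosome 7 from 103851749 to 103853216 of GRCm38, minus strand) encodes the epsilon-y chain, the main beta-type chain of maturing primitive red cells. The wild-type libraries held 804, 595, 1339 and 1849 CPM of it in replicate order, and the mutant libraries 439, 339.6, 141 and 395 CPM. The lowest wild-type library was 1.36-fold above the highest mutant library. The log2 fold change (mutant relative to wild-type) was -1.80 with a standard error of 0.407, and the adjusted p of edgeR's quasi-likelihood test was 0.0101.

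Hbb-bh1 (ENSMUSG00000052217, chromosome 7 from 103841637 to 103843164, minus strand), the beta-type gene that is used first in primitive red cells, stood at 411, 530.4, 1077 and 1256 CPM in the wild-type libraries. In the mutant libraries it stood at 265, 218, 80.0 and 209.7 CPM. The groups did not overlap, and the log2 fold change was -2.08 (standard error 0.427, edgeR adjusted p = 0.00661). Tbx20EH1Mut 3 was the lowest library for this gene, as it was for Hbb-y.

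Hba-x (ENSMUSG00000055609, chromosome 11 from 32276400 to 32278116, plus strand), which encodes the embryonic zeta chain, had the most negative estimate of the 7, within its error of that of Hbb-bh1. Their order was reversed without wild-type 1 (-2.29 against -2.31) and without Tbx20EH1Mut 2 (-2.13 against -2.15). It was counted at 653, 613, 1260.0 and 1452 CPM in the wild-type and at 313, 223, 96.5 and 274 CPM in the mutant libraries. The lowest wild-type library exceeded the highest mutant library by 1.96-fold, the widest gap of any member. The log2 fold change was -2.13 (standard error 0.391, edgeR adjusted p = 0.0039), which placed Hba-x at rank 138 from the most negative of all genes tested.

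Hba-a1 (ENSMUSG00000069919, chromosome 11 from 32283511 to 32284465, plus strand) and Hba-a2 (ENSMUSG00000069917, chromosome 11 from 32296489 to 32297298, plus strand) encode the adult alpha chain. Hba-a1 stood at 148, 97.0, 207 and 345 CPM in the wild-type and at 72.2, 61.8, 32.9 and 72.2 CPM in the mutant libraries. Hba-a2 stood at 39.0, 21.4, 52.3 and 33.6 CPM in the wild-type and at 14.7, 7.09, 10.9 and 20.7 CPM in the mutant libraries. Neither gene's genotypes overlapped, though for Hba-a2 the lowest wild-type library was only 1.03-fold above the highest mutant library.

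The log2 fold changes were -1.74 for Hba-a1 (standard error 0.375, edgeR adjusted p = 0.00842) and -1.45 for Hba-a2 (standard error 0.337, edgeR adjusted p = 0.0113). The pair did not rank the libraries alike. Wild-type 4 was the highest library for Hba-a1 and the second lowest of the wild-type for Hba-a2, and Hba-a2 took 20.9, 18.0, 20.2 and 8.88% of the adult alpha-type counts in the wild-type libraries. In the mutant libraries it took 16.9, 10.3, 25.0 and 22.3%, within an overlapping range.

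Hbb-bt (ENSMUSG00000073940, chromosome 7 from 103812524 to 103813996, minus strand), an adult beta-type gene, rested on 101, 59, 124 and 143 counts in the wild-type and on 41, 33, 22 and 58 in the mutant libraries. These were 3.06, 1.202, 2.47 and 3.12 CPM against 1.06, 0.876, 0.688 and 1.54 CPM. Wild-type 2 lay below Tbx20EH1Mut 4, so the groups overlapped. The log2 fold change was -1.24 (standard error 0.374, edgeR adjusted p = 0.033). The call was lost in 6 of 8 fits that left out 1 library (all but those without wild-type 2 or Tbx20EH1Mut 4), with adjusted p between 0.0129 and 0.0953, and under limma-voom (adjusted p = 0.0563).

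Hbb-bs (ENSMUSG00000052305, chromosome 7 from 103826534 to 103828096, minus strand), the other adult beta-type gene, was counted 77, 132, 303 and 241 times in the wild-type and 52, 103, 214 and 74 times in the mutant libraries. Its level was 2.34, 2.69, 6.04 and 5.26 CPM against 1.35, 2.73, 6.69 and 1.96 CPM. Tbx20EH1Mut 3, the lowest mutant library for every other member but Hba-a2, was the highest of all 8 libraries for Hbb-bs. The log2 fold change was -0.37 (standard error 0.498, edgeR adjusted p = 0.602). Leaving out 1 library gave values between -1.01 (without Tbx20EH1Mut 3, adjusted p = 0.093) and -0.10 (without Tbx20EH1Mut 1), and none passed the test.

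**Figure D2:**
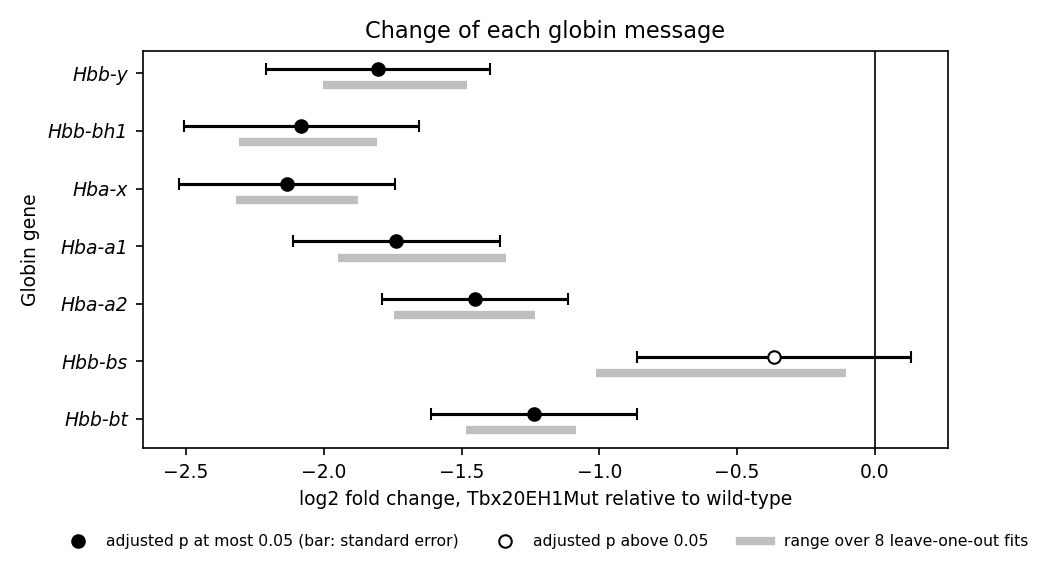
The log2 fold change of each globin gene in Tbx20EH1Mut relative to wild-type hearts (horizontal axis), with its standard error, from edgeR's quasi-likelihood fit of 4 against 4 libraries. Filled circles had an adjusted p of at most 0.05, and grey bars span the 8 fits without 1 library each. The estimates run from -2.13 for Hba-x to -0.37 for Hbb-bs, and the grey bar of Hbb-bs is the longest.

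The makeup of the beta-type messages was nearly all embryonic in both genotypes. Adult beta-type genes gave 0.443, 0.345, 0.351 and 0.269% of the beta-type counts in the wild-type libraries. In the mutant libraries they gave 0.341, 0.643, 3.23 and 0.575%. Tbx20EH1Mut 3 stood apart, with a 95% Clopper-Pearson interval from 2.84 to 3.67% that covers counting error only, and the other mutant libraries lay between 0.341 and 0.643%. The embryonic share was therefore 99.6 ± 0.0711% in the wild-type and 98.8 ± 1.36% in the mutant (SD, n = 4). The difference of -0.846 percentage points became -0.168 without Tbx20EH1Mut 3, and the genotypes overlapped.

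Within the adult beta-type counts, Hbb-bs gave 43.3, 69.1, 71.0 and 62.8% in the wild-type libraries and 55.9, 75.7, 90.7 and 56.1% in the mutant libraries. The means differed by 8.08 percentage points, and by 1.05 without Tbx20EH1Mut 3. The share in Tbx20EH1Mut 3 had an interval from 86.2 to 94.1%, above the share in every other library. The Hbb-bt level in that library was the lowest of the 8 as counted. The split between these copies is uncertain, and the cause of this difference was not tested.

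The alpha-type messages held a larger adult part. Adult alpha-type genes gave 22.3, 16.2, 17.1 and 20.7% of the alpha-type counts in the wild-type libraries and 21.7, 23.6, 31.2 and 25.3% in the mutant libraries. Tbx20EH1Mut 3 again had the highest adult share, and wild-type 1 lay above Tbx20EH1Mut 1, so the genotypes overlapped. The embryonic alpha-type share was 81.0 ± 2.89% in the wild-type and 74.5 ± 4.11% in the mutant (SD, n = 4), a difference of -6.42 percentage points. It was -4.50 without Tbx20EH1Mut 3, and -5.32 with Hba-a1 or -2.38 with Hba-a2 taken as the only adult gene.

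The embryonic members, which share no read window, were also compared with each other. Hbb-y over Hbb-bh1, a ratio that rises as primitive red cells mature, was 1.96, 1.12, 1.24 and 1.47 in the wild-type and 1.65, 1.56, 1.76 and 1.88 in the mutant libraries. The highest value was that of wild-type 1, and the other 3 wild-type libraries lay below all mutant libraries. As a share of embryonic beta-type counts, Hbb-y took 58.5 ± 5.82% in the wild-type and 63.1 ± 1.91% in the mutant (SD, n = 4). That difference of 4.57 percentage points was 7.13 without wild-type 1 and 2.69 without wild-type 2.

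Hbb-y over Hba-x, the leading embryonic chain of each type, was 1.23, 0.971, 1.06 and 1.27 in the wild-type libraries. It was 1.40, 1.52, 1.46 and 1.44 in the mutant libraries, all above the wild-type. Both genes fell, and the difference between their changes was not tested. The alpha-type genes as a whole took 40.8, 39.3, 38.5 and 37.0% of globin counts in the wild-type and 36.2, 34.2, 38.1 and 37.6% in the mutant libraries, with overlap. These ratios are descriptions of 4 against 4 libraries and were not tested.

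**Figure D3:**
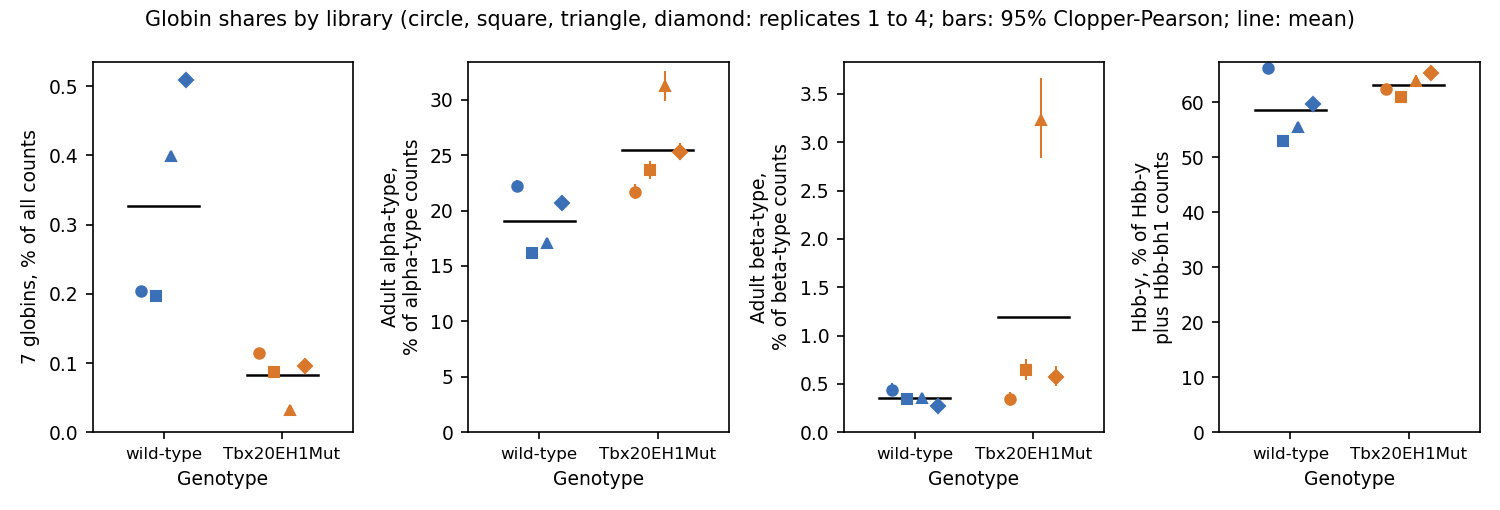
From left to right, the 7 globins as a percentage of all counts, the adult share of alpha-type counts, the adult share of beta-type counts, and the Hbb-y share of embryonic beta-type counts, in 4 wild-type (blue) and 4 Tbx20EH1Mut (orange) libraries. Marker shapes give the replicate number, bars the 95% Clopper-Pearson interval and lines the mean. Only the first panel separates the genotypes, and Tbx20EH1Mut 3 (triangle) lies at 3.23% in the third.

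The levels of most members varied together across libraries. The Pearson correlation of a member's log2 level with that of the other 6 summed, over the 8 libraries, was 0.995 for Hba-x, 0.990 for Hbb-y, 0.986 for Hbb-bh1 and 0.981 for Hba-a1. It was 0.865 for Hbb-bt, 0.818 for Hba-a2 and 0.16 for Hbb-bs. Without Tbx20EH1Mut 3 the value of Hbb-bs was 0.835, and those of the other members lay between 0.816 and 0.991. These values include the difference between the genotypes and share the library's depth and scaling. Among 10932 other genes that reached a mean of 5 CPM, the levels most like the globin sum were those of Sh3glb2 (r = 0.985), Rbm3 (0.975), Acp5 (0.973), Mecr (0.972) and Ftsj1 (0.970). Acp5, an acid phosphatase, stood between 5.38 and 10.7 CPM in the wild-type and between 2.06 and 3.39 CPM in the mutant libraries.

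Promoters were compared over the 120 bases before the RefSeq start (GRCm38.p6), available for 6 of the 7 members. These windows are not independent, since Hba-a1 and Hba-a2 carry nearly the same sequence and Hbb-bs and Hbb-bt are close copies. In the deposited annotation the windows of Hba-x and Hba-a1 lie wholly within exons of longer transcripts, and 37 bases of the Hbb-bs window and 73 of the Hbb-bt window do. Each letter string was searched on both strands. CACCC, the core of the site that Klf1 binds, was present in 6 of 6 windows against 31.7% of all 32851 promoter windows of that length. CCAAT was present in 5 of 6 (21.3% of all windows), TATAA in 5 of 6 (11.9%), GGTCA, a string found in nuclear receptor sites, in 3 of 6 (18.9%), and GATAA, the core of a GATA site, in 1 of 6 (10.5%). A match is a description of letters and not a bound site.

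An embryonic and an adult promoter are shown, those of the members whose window lies almost wholly outside the exons of the deposited tables, cut where the exon begins. The matches are in capitals, and in Hbb-y a GGTCA on the reverse strand overlaps CCAAT.
Hbb-y, chr7:103853217-103853327, minus strand: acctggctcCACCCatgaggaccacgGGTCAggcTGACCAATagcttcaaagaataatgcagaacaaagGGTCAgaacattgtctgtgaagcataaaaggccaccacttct
Hba-a2, chr11:32296372-32296488, plus strand: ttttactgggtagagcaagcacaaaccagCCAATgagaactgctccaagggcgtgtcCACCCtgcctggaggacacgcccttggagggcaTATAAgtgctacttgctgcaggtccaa

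Hbb-y held 3 matches to GGTCA and none to TATAA, while Hba-a2 held none of the first and 1 of the second. Hbb-y fell by 1.80 and Hba-a2 fell by 1.45 on the log2 scale in the mutant, with standard errors of 0.407 and 0.337. Hba-a1, whose window also held 1 match to TATAA and none to GGTCA, fell by 1.74. A link between these strings and the changes was not tested.

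Messages of several factors that control globin genes in red cells were lower as well. As for the globins, fewer red cells and less of these messages per red cell cannot be told apart. Of 15 regulators tested, 6 fell and none rose, where 15.3% of all genes tested were called lower (median log2 fold change -0.69). Klf1, the erythroid activator of globin genes, stood at 4.70, 4.36, 5.22 and 8.25 CPM in the wild-type and at 0.984, 1.35, 0.907 and 0.928 CPM in the mutant libraries. The groups lay far apart, and the log2 fold change was -2.43 (standard error 0.278, edgeR adjusted p = 0.00039). Gfi1b, an erythroid repressor, fell from 1.59 ± 0.495 to 0.159 ± 0.124 CPM (SD, n = 4). Its log2 fold change was -3.28 (standard error 0.5635, edgeR adjusted p = 0.00294). Gfi1b rested on only 9, 11, 1 and 3 counts in the mutant libraries.

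The most abundant regulators did not pass the test. Ldb1, the cofactor that links the beta-globin enhancer to its genes, was 141 ± 6.60 against 163 ± 12.5 CPM (SD, n = 4, edgeR adjusted p = 0.132), and Zfpm1, the partner of Gata1, was 103 ± 34.7 against 61.2 ± 19.5 CPM (SD, n = 4, edgeR adjusted p = 0.0658). Both are also used outside red cells. Bcl11a and Sox6, repressors of embryonic globin genes in definitive cells, were chosen for mention after their values were seen, and had log2 fold changes of 0.05 and -0.06 (edgeR adjusted p = 0.927 and 0.85).

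Of 19 genes of haem synthesis, iron uptake and globin assembly, 11 fell and 1 rose (median log2 fold change -0.42), against 15.3% of all genes tested called lower and 14.0% higher. Slc25a39, a mitochondrial carrier, was among the most abundant per kb and did not pass, at 201 ± 29.6 against 226 ± 23.0 CPM (SD, n = 4, edgeR adjusted p = 0.357). Alas2, the erythroid enzyme of the first step of haem synthesis, was 4.58, 10.6, 13.2 and 21.1 CPM in the wild-type and 4.33, 2.34, 0.594 and 2.31 CPM in the mutant libraries. Wild-type 1 and Tbx20EH1Mut 1 nearly met, and the log2 fold change was -2.36 (standard error 0.558, edgeR adjusted p = 0.012). Tmem14c, a mitochondrial porphyrin transporter, fell from 126 ± 19.3 to 79.9 ± 4.92 CPM (SD, n = 4, log2 fold change -0.66, edgeR adjusted p = 0.00506), and the iron transporter Slc11a2 fell by 0.93 on the log2 scale.

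The gene that rose, Hmox1, was singled out after its values were seen. It encodes the haem oxygenase that breaks haem down. It stood at 23.2, 19.5, 21.5 and 23.5 CPM in the wild-type and at 37.4, 45.9, 35.6 and 39.4 CPM in the mutant libraries (log2 fold change 0.85, edgeR adjusted p = 0.0011).

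Genes of the red cell membrane moved in the same direction as the globins. Of 14 tested, 12 fell and none rose, with a median log2 fold change of -1.33, where 15.3% of all genes tested were called lower. The summed level of the list was 168 to 269.8 CPM in the wild-type and 118 to 142 CPM in the mutant libraries, and Epb41, which other cells also use, made up the largest part. Epb42 fell from 1.40 ± 0.812 to 0.131 ± 0.0463 CPM (log2 fold change -3.40, edgeR adjusted p = 0.00234) and Rhag from 1.43 ± 0.820 to 0.159 ± 0.109 CPM (log2 fold change -3.13, edgeR adjusted p = 0.00576; SD, n = 4). In the mutant libraries Epb42 rested on only 7, 3, 5 and 4 counts and Rhag on 10, 4, 1 and 9. Gypc, at 25.2 ± 4.13 against 19.9 ± 2.63 CPM (SD, n = 4), did not pass (edgeR adjusted p = 0.111).

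Slc4a1, the anion exchanger that defines the red cell membrane, was chosen after its values were seen. It stood at 6.46, 11.1, 12.7 and 20.2 CPM in the wild-type and at 2.59, 2.02, 0.781 and 1.96 CPM in the mutant libraries. Wild-type 4 was the highest and Tbx20EH1Mut 3 the lowest library, as for Hbb-y, Hbb-bh1, Hba-x and Hba-a1. The part of red cell number in the globin differences was not tested.

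**Figure D4:**
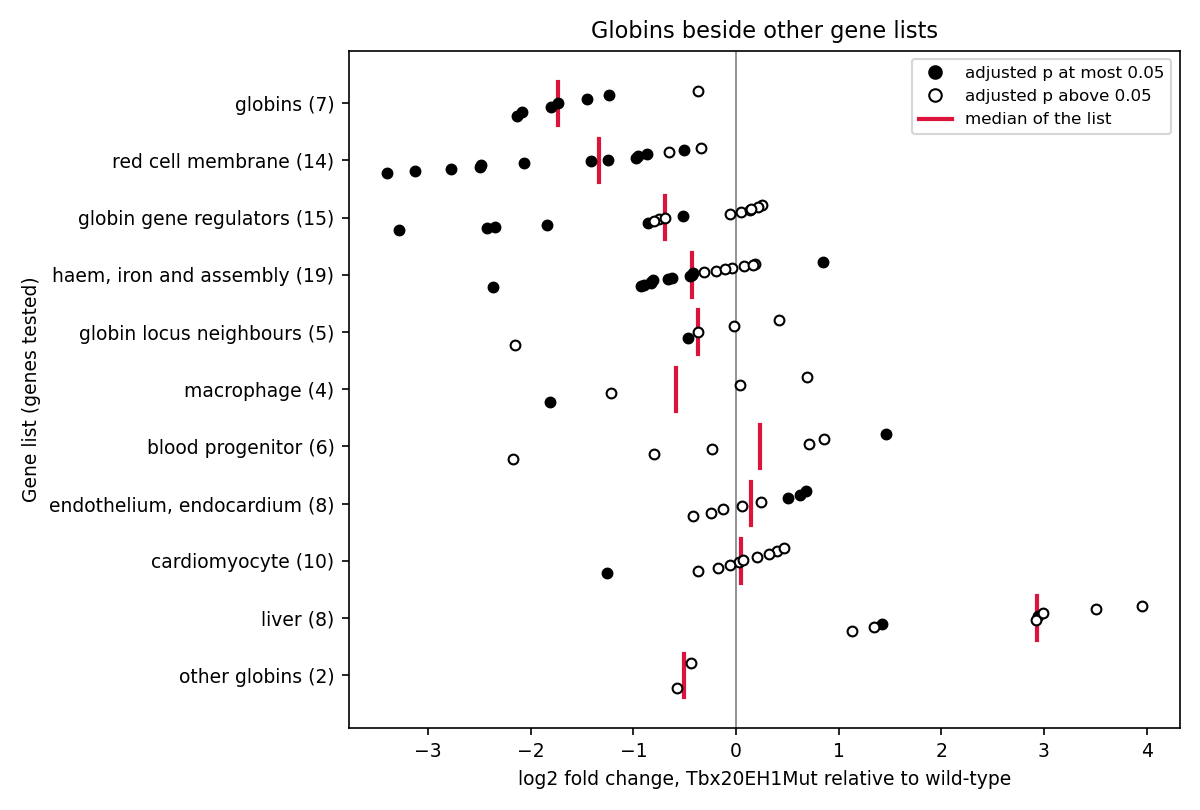
The log2 fold change (horizontal axis) of every tested gene in the globin set and in 10 further gene lists, with the number of genes tested in brackets. Filled circles had an adjusted p of at most 0.05 in edgeR's quasi-likelihood test and red lines are list medians. The globins (median -1.74) and red cell membrane genes (median -1.33) lie mostly to the left of 0, and the cardiomyocyte genes (median 0.05) lie around it.

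Markers of other blood cells were low or mixed. Pf4, a platelet chemokine, was 4.95 ± 1.21 against 3.80 ± 2.65 CPM (SD, n = 4, edgeR adjusted p = 0.514). Of 4 macrophage genes tested, 1 fell (15.3% of all genes tested were called lower): Lyz2, from 9.04 ± 2.46 to 2.57 ± 0.721 CPM (SD, n = 4). The macrophage receptor Csf1r was 1.48 ± 0.262 against 2.38 ± 0.132 CPM, higher in every mutant library (SD, n = 4, edgeR adjusted p = 0.0501), and Mrc1 had a log2 fold change of 0.04. The summed level of the list, between 12.5 and 20.5 CPM in the wild-type and between 6.79 and 10.04 CPM in the mutant libraries, was mostly that of Lyz2 in the wild-type. Over all genes tested 14.0% were called higher. Of 6 blood progenitor genes tested, 1 rose, Kit, a receptor that other cells also carry, from 14.8 ± 4.25 to 40.9 ± 2.12 CPM (SD, n = 4, log2 fold change 1.46, edgeR adjusted p = 0.00057). Of 8 endothelial genes, 3 rose (Pecam1, Kdr and Emcn) and none fell, and of 8 liver genes tested, 2 rose (Apoa1 and Trf). The liver list summed to 43.0, 186, 8.53 and 7.29 CPM in mutant replicates 1 to 4 and to between 3.62 and 14.8 CPM in the wild-type, and its part in the globin differences was not tested.

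Of the 5 tested neighbours of the globin genes on the chromosomes, 1 was called, a share near the 15.3% of all genes tested that were called lower. Nprl3, whose introns hold the alpha-globin enhancers, fell from 23.7 ± 2.99 to 17.1 ± 1.83 CPM (SD, n = 4, log2 fold change -0.47, edgeR adjusted p = 0.027). Hbq1b, a theta-type globin, was counted 18, 16, 43 and 58 times in the wild-type and 16, 6, 0 and 3 times in the mutant libraries (log2 fold change -2.15, edgeR adjusted p = 0.0642). Snrnp25 was 31.4 ± 5.64 against 41.9 ± 6.29 CPM (SD, n = 4, edgeR adjusted p = 0.0684). Among globins of other tissues, Mb, the myoglobin of muscle, was 7.88 ± 2.71 against 5.30 ± 1.84 CPM (SD, n = 4, log2 fold change -0.57, edgeR adjusted p = 0.176), and neither of 2 tested was called.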

How the data were processed

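Poly-A selected RNA of whole E9.5 hearts, 3 pooled per library, was sequenced as paired 150-base reads in 4 wild-type and 4 Tbx20EH1Mut libraries. The authors deposited raw counts per Ensembl gene with exon positions and summed exon length, not normalized. The submitters' processing notes name Trimmomatic 0.36, STAR 2.5.2b and GRCm38/mm10. The counting tool, its strand setting and its handling of reads with several matches are not given in the sources used here. Of 49315 genes, 48970 have a symbol in GENCODE M21 under the same identifier. Genotype and replicate number came from the labels. No pair of replicates agreed within sampling noise. That each library is a separate pool of embryos comes from the methods of the study.

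Tests were run with edgeR 4.0.16 in R 4.3.3: filterByExpr, TMM scaling and the quasi-likelihood test with genotype as the only term, adjusted by the Benjamini-Hochberg method over 17163 genes. The threshold for a call was an adjusted p of 0.05. The common dispersion was 0.0707. CPM is relative to the TMM-scaled library, and RPKM is CPM per kb of the deposited exon length, which for Hba-x, Hba-a1, Hba-a2 and Hbb-bs includes exons of longer alternative transcripts. Standard errors were computed from the fold change and its F statistic. Shares and ratios were taken from counts, with 95% Clopper-Pearson intervals that cover counting error only, and were given no test. Library totals were between 33359322 and 49523086, so 3 counts equal 0.0598 to 0.0938 CPM. The steps were tested on simulated counts.

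Alternatives were RLE, upper-quartile, library-size and globin-free TMM scaling, DESeq2 1.42.0, limma-voom (limma 3.58.1), no filter, a minimum of 10 counts per library, a replicate block, leaving out each library in turn, and for shares other denominators. The correlations between members and the Hbb-bs share without Tbx20EH1Mut 3 were added after seeing the data. Named genes were the 7 members, in each list the 2 most abundant per kb and the 2 with the largest absolute log2 fold change, and the 5 genes most like the globin sum (log2 of CPM plus 0.5). Other names are marked as chosen after their values were seen or are the genes behind a count of 5 or fewer. The members and lists were chosen with earlier results of these data known. Ahsp of the haem list was not analysed here, and the counts of the platelet list are not reported here. Windows and promoters were read with Python 3.11.15 from GENCODE M21 transcripts and RefSeq tables, and intervals were computed with scipy 1.17.1.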

Additional observations from a re-analysis of the deposited data

Results flagged for a closer look

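Of 34 groups of 4 libraries examined for a library far from the others, 2 were marked, and they are complements of each other. In Tbx20EH1Mut 3 the embryonic share of beta-type globin counts was 96.8% and the adult share 3.23%, while the other mutant libraries lay between 99.4 and 99.7% and between 0.341 and 0.643%. The gap was 0.895 of the group's range, above Dixon's 95% critical value for 4 libraries. Chance marks about 1 in 20 groups. The adult share rested on 214 counts of Hbb-bs and 22 of Hbb-bt, and the level of Hbb-bs, 6.69 CPM, was the highest of all 8 libraries, while Hbb-y, at 141 CPM, was the lowest. The scaling factor of this library, 0.883, was also the lowest of the 8. The cause was not tested.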

How the results depend on the processing

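Hba-x, Hba-a1, Hba-a2, Hbb-y and Hbb-bh1 stayed lower at an adjusted p of at most 0.05 under all 17 alternatives, 8 of them fits without 1 library. Hbb-bs was not called under any. Hbb-bt gave -1.15 under limma-voom and between -1.49 and -1.08 without 1 library, and was not called under limma-voom or in 6 of those 8 fits, where the cause was not tested. The embryonic share of alpha-type counts differed by -2.38 percentage points with Hba-a2 as the only adult gene, which is the smaller part of the adult alpha-type counts. The count of all genes called, 5024, lay between 3001 (without wild-type 4) and 6586 (without wild-type 1) when 1 library was left out. It was 3061 without wild-type 3 and 3028 without Tbx20EH1Mut 4. DESeq2 called 6275 and limma-voom 5215. The median log2 fold change of all genes lay between -0.06 and 0.09 under the scalings.

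Replicate numbers are shared by the genotypes, but libraries with the same number did not deviate together (r = -0.27, 0.34, 0.06 and 0.06 for numbers 1 to 4). No wild-type library correlated best with the mutant library of its number. Among the mutant libraries, only Tbx20EH1Mut 2 correlated best with the wild-type library of its number. With a replicate block, 3945 genes and 6 of the 7 members were called. Hbb-bt and Hbb-bs rested on 22 to 303 counts per library, and their standard errors were 0.374 and 0.498, against 0.337 to 0.427 in the other members.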
